A study of Mus musculus with 7 samples.

Results

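The genes examined here encode the subunits of mitochondrial oxidative phosphorylation, sorted by complex. They were taken by gene symbol from the annotation of the Affymetrix mouse430_2 array, as every symbol beginning with Nduf followed by a, b, c, s or v, with Sdh followed by a, b, c or d alone, with Uqcr, with Cox followed by 4 to 8, or with Atp5. This gave 90 of the 18193 genes measured. They were 6 core subunits, 30 accessory subunits and 8 assembly factors of complex I, 4 subunits of complex II, 8 of complex III, 10 of complex IV with 7 further isoforms of complex IV subunits that are known mainly from single tissues, and 17 of complex V. The Ndufaf genes match the symbol rule but encode factors that build complex I and are not part of the finished enzyme, so they were kept apart. Ndufs6, Ndufa11 and Cox7b are not among the 90, since no probe set used here carried their symbol alone.

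The samples were hypothalami dissected from 3-month-old mice. One group, labelled Creb-PomcCre-/- (3 arrays), came from mice in which a Cre recombinase driven by Pomc removed Creb, and the other was wild type (4 arrays). Each sample was a biological replicate on an array of its own, and the labels do not say whether a sample held 1 animal or several, nor whether the wild-type mice carried Cre or floxed alleles. The p-values therefore measure the spread between these samples. The presence of Xist marked 1 Creb-PomcCre-/- and 2 wild-type samples as female, which the labels do not state. Creb1 encodes a transcription factor activated by cyclic AMP, and Pomc encodes the precursor of appetite-suppressing peptides made by a small population of neurons in the arcuate nucleus. In whole tissue, fewer cells of a type and less RNA per cell cannot be told apart.

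Oxidative phosphorylation is carried out in the inner mitochondrial membrane. Complexes I and II take electrons from NADH and succinate, complex III passes them to cytochrome c, complex IV hands them to oxygen, and complexes I, III and IV pump protons whose return through complex V drives ATP synthesis. Nuclear genes encode most subunits, and neurons depend heavily on the pathway. CREB is known to act on it through Ppargc1a, which encodes a coactivator of mitochondrial gene expression, and CREB-type sites occur in promoters of several respiratory genes.

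The values are log2 expression values deposited by the authors, and every difference below is Creb-PomcCre-/- minus wild type on that log2 scale. Array medians lay between 6.20 and 6.24, and arrays correlated at 0.994 to 0.997 over probe sets. The difference between the 3' and 5' control probe sets of Gapdh, a sign of RNA integrity, was 0.035 to 0.055 in the Creb-PomcCre-/- arrays and 0.0010 to 0.047 in the wild-type arrays. For Actb the same measure was larger, at 1.365 to 1.473 in the Creb-PomcCre-/- arrays and 1.337 to 1.439 in the wild-type arrays. The hypothalamic peptide genes Pmch and Hcrt were strongly expressed. Their means were 13.86 for Pmch and 12.64 for Hcrt in the Creb-PomcCre-/- arrays, against 13.74 for Pmch and 12.31 for Hcrt in the wild-type arrays. The targeted gene did not separate the genotypes in whole tissue. Creb1 read 9.42, 9.46 and 9.47 in Creb-PomcCre-/- arrays against 9.44, 9.57, 9.40 and 9.56 in wild-type arrays, a difference of -0.04 ± 0.052 (SE; limma, adjusted p = 0.787). Pomc averaged 9.88 ± 0.36 (SD, n = 3) in Creb-PomcCre-/- arrays and 9.67 ± 0.45 (SD, n = 4) in wild-type arrays, a difference of 0.21 ± 0.24 (SE; limma, adjusted p = 0.765) that was -0.0022 without Creb-PomcCre-/- array 1 and 0.41 without wild-type array 1.

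None of the 90 oxidative phosphorylation genes passed the threshold of 0.05 after Benjamini-Hochberg adjustment over all genes (limma, lowest adjusted p = 0.267). The background was 2 genes called among 18193, or 0.011%. Most measured differences were small, and 74 of the 90 genes differed by less than 0.1. With assembly factors and tissue isoforms set aside, 66 of the 75 subunits had a 95% confidence interval of the difference within 0.2 of 0. That limit is a change of up to 1.15-fold. Of all 90 genes, 68 had such an interval. The others reached farther, as Ndufv1 did at -0.72 to 0.038. These intervals describe the whole tissue and set no limit on a change in the Pomc neurons alone. The median difference was 0.022 over the 90 genes, against 0.0036 over all genes, and 59 were higher in Creb-PomcCre-/- arrays and 31 lower, where 51.5% of all genes were higher.

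At an unadjusted p under 0.05, 12 of the 90 genes stood out, 11 higher and 1 lower. Over all genes this share was 11.7%, with 5.6% higher and 6.12% lower. The 12 genes amount to 13.3% of the 90, close to that background, and the split between directions was 11 to 1. The arrays of the genotypes did not overlap for 18 genes (20%), 16 higher and 2 lower, against 12.1% of all genes, 6.09% higher and 6.05% lower. The counts moved with single arrays and settings, in both directions. The count at an unadjusted p under 0.05 was 7 without Creb-PomcCre-/- array 2 (8.13% of all genes), 7 without wild-type array 4 (9.15% of all genes) and 5 with a variance model that ignores level (11.2% of all genes). It was 18 with quantile normalization (11.5% of all genes). It was 16 with the mean of probe sets (10.7% of all genes), with array weights (13.1%) or without wild-type array 1 (14.5%). The count without overlap was 30 of 90 (33.3%) without wild-type array 1, where 20.9% of all genes did not overlap with the same arrays.

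**Figure D1:**
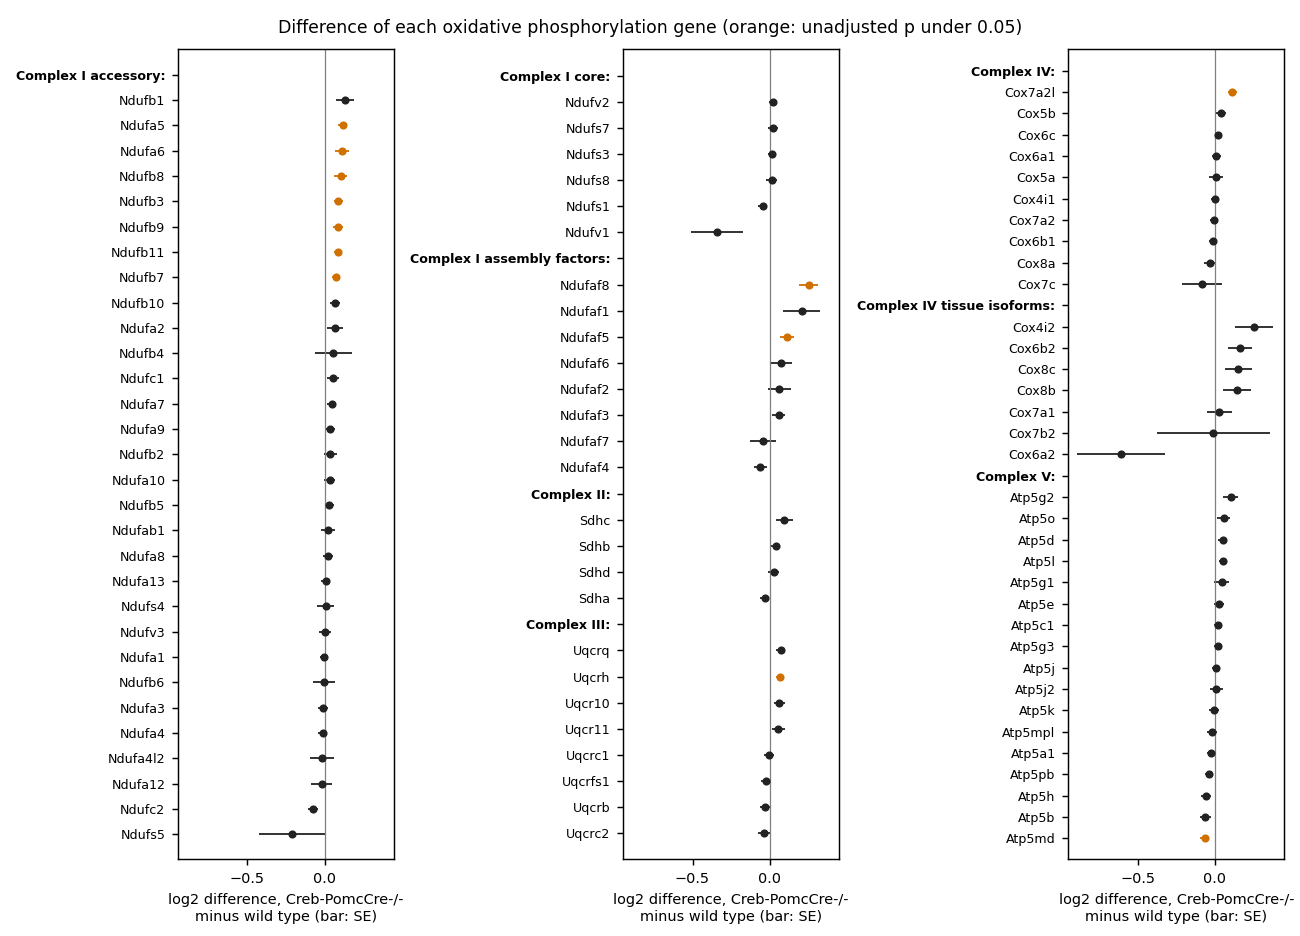
Log2 difference of each of the 90 genes, Creb-PomcCre-/- minus wild type (x axis), with its standard error, grouped by complex and ordered by size. Genes with an unadjusted p under 0.05 are orange: 11 lie right of 0 and 1, Atp5md, lies left of it. The genes farthest from 0, Cox6a2 at -0.61 and Ndufv1 at -0.34, have the widest or nearly the widest bars of their groups.

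Most of these genes are among the brightest on the array, where precision is highest. When all genes were put in 10 bins by mean level, 69 of the 90 fell in the top bin, which starts at a mean of 10.59. In that bin the median standard error was 0.041. Of the 69 genes, 10 reached an unadjusted p under 0.05, and 18.5% of all genes of the bin did. The arrays did not overlap for 14 of the 69, and for 18.6% of all genes of the bin. By direction, 9 of the 69 were higher at an unadjusted p under 0.05 and 12 were higher without overlap, while the shares over the bin were 7.75% and 7.64%. Of the 69, 44 were higher, with a median of 0.019, and over the whole bin 47.4% were higher, with a median of -0.0056. By share, the oxidative phosphorylation genes of this bin had no more small p-values than the whole bin, and more of those they had were on the higher side. Most of the 69 lay in the upper part of the bin, so it does not match them in level. That difference in direction was not tested.

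**Figure D2:**
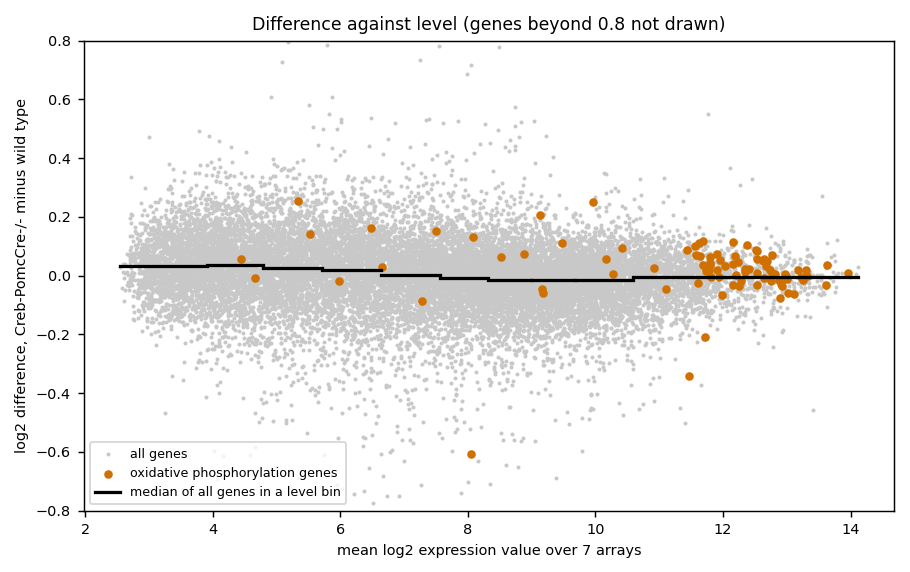
Log2 difference, Creb-PomcCre-/- minus wild type (y axis), against the mean log2 expression value over 7 arrays (x axis) for all genes (grey) and the oxidative phosphorylation genes (orange), with the median of all genes in each of 10 level bins (black lines); 55 genes beyond 0.8 are not drawn. The orange points crowd at the bright end, 69 of them in the top bin, and most of them lie close to 0.

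Complex I holds the catalytic core, in which NADH is oxidised and electrons run along iron-sulfur clusters to ubiquinone, wrapped in accessory subunits that stabilise it. The 6 core genes had a median difference of 0.014, with 4 higher and 2 lower, and 0 reached an unadjusted p under 0.05. Without Creb-PomcCre-/- array 3 that median was -0.0080, with 2 higher. Ndufv1, the flavoprotein that binds NADH, read 10.83, 11.54 and 11.45 in Creb-PomcCre-/- arrays and 11.45, 11.75, 11.81 and 11.44 in wild-type arrays. Creb-PomcCre-/- array 1 lay far below every other array and the other values overlapped (difference -0.34 ± 0.17 SE; limma, adjusted p = 0.462). The other probe sets of Ndufv1 did not show this: they differed by -0.037 and 0.013. Without Creb-PomcCre-/- array 1 the Ndufv1 difference was -0.12.

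Ndufs1, the large iron-sulfur subunit at the electron entry of complex I, was the core gene whose brightest probe set did not overlap. It read 11.09, 11.06 and 11.07 in Creb-PomcCre-/- arrays and 11.12, 11.11, 11.13 and 11.12 in wild-type arrays. The gap was small, at -0.05 ± 0.029 (SE; limma, adjusted p = 0.542). Ndufv2, the partner of Ndufv1, differed by 0.02 ± 0.026 (SE) with overlap on its brightest probe set, while its other probe sets differed by 0.077 and 0.099. The probe set at 0.099 did not overlap, with 11.85, 11.84 and 11.78 in Creb-PomcCre-/- arrays and 11.72, 11.74, 11.75 and 11.68 in wild-type arrays (limma, adjusted p = 0.374). Ndufs7, which carries the last cluster before ubiquinone, differed by 0.02 ± 0.031 (SE) with overlap.

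The 30 accessory subunit genes of complex I held most of the small p-values. Their median was 0.035, with 22 of the differences above 0 and 8 below it. Of the 30, 7 were higher at an unadjusted p under 0.05 and 0 lower, and 7 were higher without overlap. That is 23.3% for each count, where 11.7% of all genes and 18.5% of the brightest bin reached that p, and 12.1% of all genes and 18.6% of the bin did not overlap. Leaving out wild-type array 2 gave a median of 0.022, and leaving out Creb-PomcCre-/- array 2 gave 0.047. Ndufa5, a subunit of the arm that projects into the matrix, read 11.75, 11.76 and 11.77 in Creb-PomcCre-/- arrays and 11.63, 11.64, 11.68 and 11.62 in wild-type arrays. All 3 Creb-PomcCre-/- arrays were above all 4 wild-type arrays, by 0.12 ± 0.029 (SE) or 1.08-fold, but was not called (limma, adjusted p = 0.267). Its second probe set differed by 0.089.

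Genes of the B series encode subunits of the membrane arm, the part of complex I that pumps protons. Ndufb11, which is X-linked, read 12.59, 12.58 and 12.57 in Creb-PomcCre-/- arrays against 12.53, 12.46, 12.51 and 12.49 in wild-type arrays. The groups did not overlap, at a difference of 0.09 ± 0.027 (SE; limma, adjusted p = 0.313), and its other probe sets differed by 0.092 and 0.10. Ndufb3 read 11.47, 11.51 and 11.45 in Creb-PomcCre-/- arrays against 11.39, 11.41, 11.41 and 11.36 in wild-type arrays, again without overlap (0.09 ± 0.030 SE; limma, adjusted p = 0.343). Ndufb7 read 11.95, 11.97 and 11.94 in Creb-PomcCre-/- arrays against 11.87, 11.89, 11.87 and 11.89 in wild-type arrays. This was a gap several times the spread within either genotype, of 0.07 ± 0.026 (SE; limma, adjusted p = 0.350), and the second Ndufb7 probe set differed by 0.11. Ndufa6, Ndufb9 and Ndufb8, singled out after their values were seen because they complete the 7, differed by 0.11, 0.09 and 0.11, and Ndufb9 alone of these did not overlap.

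Not all accessory subunits leaned upward. Ndufs5, a small subunit of the intermembrane space, had the most negative value of the accessory group and the widest spread. It read 11.90, 11.90 and 10.97 in Creb-PomcCre-/- arrays and 11.47, 11.90, 11.92 and 11.90 in wild-type arrays. One array of each genotype was low and the other arrays were close together, so the difference of -0.21 ± 0.22 (SE) rests on those arrays, and it was 0.10 without Creb-PomcCre-/- array 3. A brighter probe set shared with the copy Ndufs5-ps showed neither low array, at 12.51 to 12.54 in Creb-PomcCre-/- arrays and 12.51 to 12.55 in wild-type arrays. Ndufa4, which carries a complex I name but is now placed in complex IV, differed by -0.01. For Ndufb4 the only probe set with a single symbol read 4.48 ± 0.15 (SD, n = 3) in Creb-PomcCre-/- arrays and 4.42 ± 0.20 (SD, n = 4) in wild-type arrays, a low level for which the deposited values carry no detection call. A pair of bright probe sets shared by Ndufb4 and its copies Ndufb4b and Ndufb4c did not overlap. One read 12.17 to 12.22 in Creb-PomcCre-/- arrays and 12.05 to 12.10 in wild-type arrays, and the other 12.35 to 12.40 in Creb-PomcCre-/- arrays and 12.23 to 12.32 in wild-type arrays. They cannot be assigned to 1 of these genes and were outside the rule. Other bright shared probe sets went both ways. That of Ndufs6 and Ndufs6b was higher without overlap, at 11.45 to 11.48 in Creb-PomcCre-/- arrays and 11.39 to 11.42 in wild-type arrays. That of Ndufab1 and Ndufab1-ps was lower without overlap, at 11.67 to 11.76 in Creb-PomcCre-/- arrays and 11.77 to 11.83 in wild-type arrays. That of Ndufa11 and Ndufa11b overlapped. Ndufa12 showed how far a call rests on the probe set: the brightest differed by -0.02 and the next ones by 0.12 and 0.10.

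**Figure D3:**
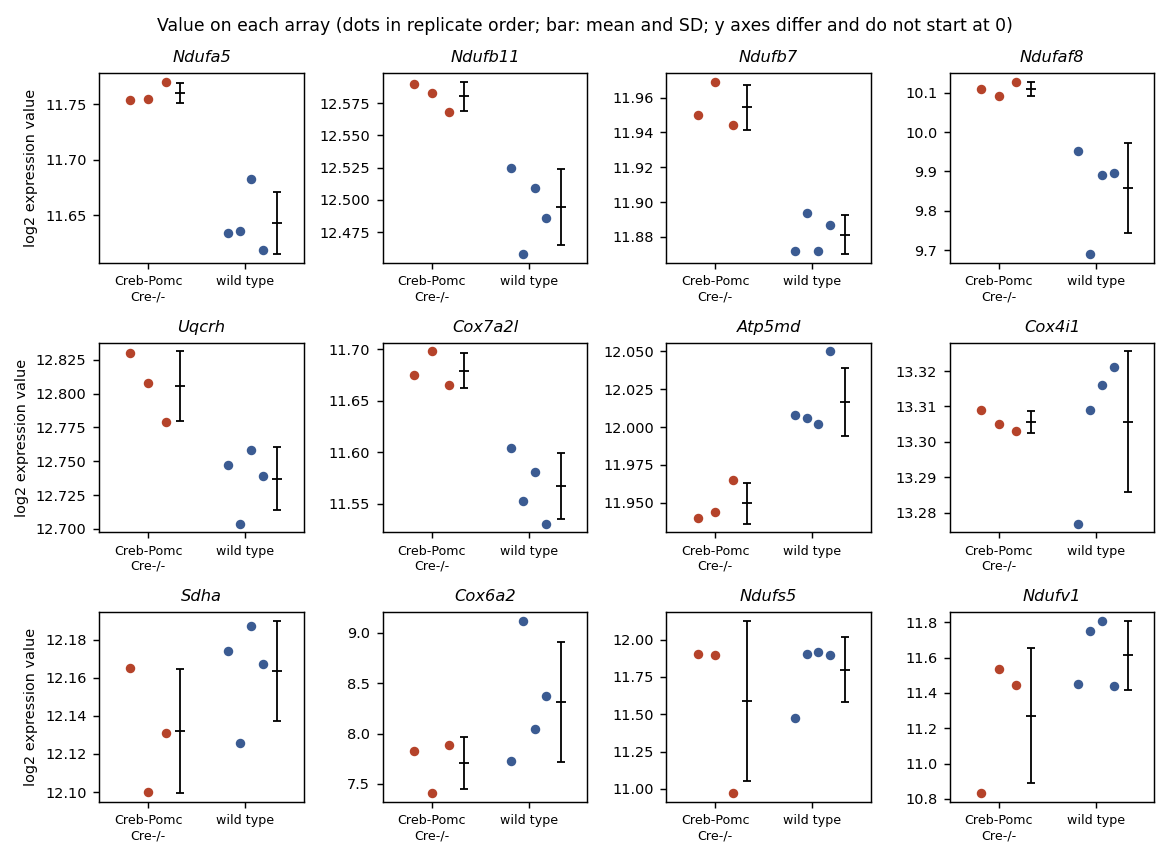
Log2 expression value on each array (y axis, a separate scale in each panel that does not start at 0) for 12 genes, Creb-PomcCre-/- arrays (red) left of wild-type arrays (blue), with the mean and SD of each group. Ndufa5, Ndufb11, Ndufb7, Ndufaf8, Uqcrh and Cox7a2l lie higher and Atp5md lower in all 3 Creb-PomcCre-/- arrays. Cox4i1 and Sdha overlap. Cox6a2 is spread widely over the wild-type arrays, Ndufs5 has a low array in each genotype, and Ndufv1 has a low Creb-PomcCre-/- array.

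The assembly factors of complex I, which are dimmer than the subunits, had a median difference of 0.069, with 6 of 8 higher. At an unadjusted p under 0.05, 2 of the 8 were higher and 0 lower. Over all genes 5.6% were higher at that p, and 11.7% reached it in either direction. Without wild-type array 2 the median was 0.035. Ndufaf8 had the largest positive difference of any factor or subunit except the dim isoform Cox4i2. It read 10.11, 10.09 and 10.13 in Creb-PomcCre-/- arrays and 9.95, 9.69, 9.89 and 9.90 in wild-type arrays. The genotypes did not overlap, with a difference of 0.25 ± 0.062 (SE) or 1.19-fold, and was not called (limma, adjusted p = 0.267). The other Ndufaf8 probe set differed by 0.18.

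In human cells Ndufaf8 is known as the partner that stabilises Ndufaf5, an enzyme that modifies the core subunit Ndufs7. Ndufaf5 differed by 0.11 ± 0.046 (SE; limma, adjusted p = 0.404), with overlap: it read 9.57, 9.56 and 9.47 in Creb-PomcCre-/- arrays and 9.49, 9.41, 9.41 and 9.38 in wild-type arrays. Ndufaf1, needed to build the membrane arm, differed by 0.21 ± 0.12 (SE), and this value leaned on wild-type array 1, at 8.70, while wild-type arrays 2 to 4 lay between 9.10 and 9.25. Without that array the Ndufaf1 difference was 0.092. Ndufaf4, an early assembly factor, had probe sets in both directions, at -0.060 and 0.074.

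Complex II links the citric acid cycle to the respiratory chain and has no subunit encoded in mitochondrial DNA. All 4 of its genes overlapped between the genotypes on their brightest probe sets. Sdha, the flavoprotein that oxidises succinate, read 12.17, 12.10 and 12.13 in Creb-PomcCre-/- arrays and 12.17, 12.13, 12.19 and 12.17 in wild-type arrays, a difference of -0.03 ± 0.029 (SE) with a 95% interval of -0.098 to 0.035. Sdhb, the iron-sulfur subunit, differed by 0.04 ± 0.030 (SE). The membrane anchors Sdhc and Sdhd differed by 0.10 ± 0.056 (SE) and 0.02 ± 0.033 (SE), and adjusted p-values of the 4 genes ran from 0.527 to 0.799 (limma). The second Sdhc probe set did not overlap, with 9.01, 9.15 and 8.98 in Creb-PomcCre-/- arrays and 8.91, 8.92, 8.95 and 8.85 in wild-type arrays (0.14 ± 0.056 SE; limma, adjusted p = 0.425).

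Complex III carries electrons from ubiquinol to cytochrome c. Of its 8 genes, 4 for small subunits (Uqcrh, Uqcrq, Uqcr10 and Uqcr11) had positive differences, and 4 had negative ones: the small subunit Uqcrb, the core proteins Uqcrc1 and Uqcrc2, and the Rieske iron-sulfur protein Uqcrfs1. Uqcrh, the hinge protein near cytochrome c1, read 12.83, 12.81 and 12.78 in Creb-PomcCre-/- arrays against 12.75, 12.70, 12.76 and 12.74 in wild-type arrays, without overlap, at 0.07 ± 0.026 (SE; limma, adjusted p = 0.374). Uqcrq differed by 0.07 ± 0.031 (SE) and Uqcr10 by 0.06 ± 0.034 (SE), also without overlap, and Uqcr11 by 0.05 ± 0.042 (SE) with overlap. The other genes lay between -0.037 and -0.0059 and overlapped. Dimmer Uqcr10 probe sets went the other way, at -0.19 and -0.33, with wide spread. With the mean of all probe sets the median of complex III was -0.0035, against 0.024 with the brightest.

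Complex IV had 5 of 10 genes higher and a median of 0.0022, which was -0.0089 without Creb-PomcCre-/- array 1 and 0.017 without Creb-PomcCre-/- array 2. The gene with the smallest p-value was Cox7a2l, which encodes a protein that joins complexes III and IV into supercomplexes. Cox7a2l read 11.68, 11.70 and 11.67 in Creb-PomcCre-/- arrays and 11.60, 11.55, 11.58 and 11.53 in wild-type arrays. The groups did not overlap, at 0.11 ± 0.030 (SE) or 1.08-fold (limma, adjusted p = 0.272), and the other probe sets of Cox7a2l differed by 0.14 and 0.085. Cox6c, a small structural subunit, did not overlap either, by a margin too small to read (0.02 ± 0.023 SE). Cox5b differed by 0.04 ± 0.037 (SE) and Cox8a by -0.03 ± 0.038 (SE), and both overlapped on their brightest probe sets. The other bright probe sets of Cox5b differed by 0.059, 0.047 and 0.080. That at 0.059 did not overlap, with 13.43 to 13.45 in Creb-PomcCre-/- arrays and 13.332 to 13.415 in wild-type arrays (limma, adjusted p = 0.477). The count of higher genes was 8 without Creb-PomcCre-/- array 2. For Cox7c the single-symbol probe set was dim, at 7.23 ± 0.22 (SD, n = 3) in Creb-PomcCre-/- arrays and 7.32 ± 0.19 (SD, n = 4) in wild-type arrays.

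Several subunits of complex IV exist as a ubiquitous and a tissue form. Of the 7 tissue forms 5 were higher, with a median of 0.14, and most were dim: with the dimmest 40% of genes dropped, 3 were left, with a median of 0.028. The ubiquitous form Cox4i1 read 13.31, 13.31 and 13.30 in Creb-PomcCre-/- arrays and 13.28, 13.31, 13.32 and 13.32 in wild-type arrays, a difference of -0.00011 with a 95% interval of -0.051 to 0.051. Its alternative Cox4i2, known from lung and from low oxygen, was dim: 5.48, 5.55 and 5.40 in Creb-PomcCre-/- arrays against 5.39, 4.89, 5.39 and 5.23 in wild-type arrays (0.25 ± 0.13 SE; limma, adjusted p = 0.464). The values of Cox4i2 did not overlap, but they are dim and carry no detection call, and the difference was 0.14 without wild-type array 2. Likewise the ubiquitous Cox6a1 and Cox7a2 differed by 0.01 ± 0.030 (SE) and -0.01 ± 0.024 (SE), and Cox7a1, the form of heart and muscle, by 0.03 ± 0.081 (SE). Cox6b2 and Cox8c, forms known from testis, differed by 0.16 ± 0.076 (SE) and 0.15 ± 0.087 (SE), at levels of 6.32 to 7.66.

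Cox6a2, the heart and muscle form that in brain is known from fast-spiking interneurons, had the most negative difference of the 90 genes. It read 7.83, 7.41 and 7.88 in Creb-PomcCre-/- arrays and 7.73, 9.12, 8.04 and 8.37 in wild-type arrays, so the groups overlapped through wild-type array 1. The difference was -0.61 ± 0.29 (SE; limma, adjusted p = 0.452), and -0.34 without wild-type array 2. A second, dimmer probe set of Cox6a2 differed by -0.79. Wild-type arrays 2 and 4, the highest for Cox6a2, also had the highest scores of 14 thalamus and habenula markers, 0.90 and 0.25, where a score is the median deviation of the markers from their means over all arrays. The other wild-type arrays scored -0.29 and -0.18, and the Creb-PomcCre-/- arrays -0.28, -0.33 and 0.096. Of those markers 12 of 14 were lower in Creb-PomcCre-/- arrays, and their mean level ran from 8.60 to 9.17 in Creb-PomcCre-/- arrays and from 8.51 to 9.88 in wild-type arrays. Their part in the Cox6a2 result was not tested.

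Complex V, the ATP synthase, had 10 of 17 genes higher and a median of 0.0094, which was 0.0015 without wild-type array 2 and 0.020 without Creb-PomcCre-/- array 2. Atp5md, a small membrane subunit that helps hold the enzyme in dimers, was the single gene of the 90 that was lower at an unadjusted p under 0.05. It read 11.940, 11.944 and 11.965 in Creb-PomcCre-/- arrays and 12.008, 12.006, 12.002 and 12.050 in wild-type arrays. The groups did not overlap, at -0.07 ± 0.027 (SE; limma, adjusted p = 0.395). Atp5l, which encodes the membrane subunit g, was higher without overlap (0.05 ± 0.025 SE), and Atp5b, the catalytic beta subunit, differed by -0.06 ± 0.033 (SE) with overlap.

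The ring of c subunits that turns as protons pass is made from 3 genes, Atp5g1, Atp5g2 and Atp5g3, whose mature proteins are the same and whose import sequences differ. Atp5g2 read 11.60, 11.60 and 11.65 in Creb-PomcCre-/- arrays against 11.61, 11.40, 11.52 and 11.51 in wild-type arrays, overlapping through wild-type array 1 (0.10 ± 0.048 SE; limma, adjusted p = 0.451). Atp5g1 differed by 0.04 ± 0.051 (SE) and Atp5g3 by 0.02 ± 0.022 (SE). All 3 were thus positive in sign and overlapped between the genotypes.

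**Figure D4:**
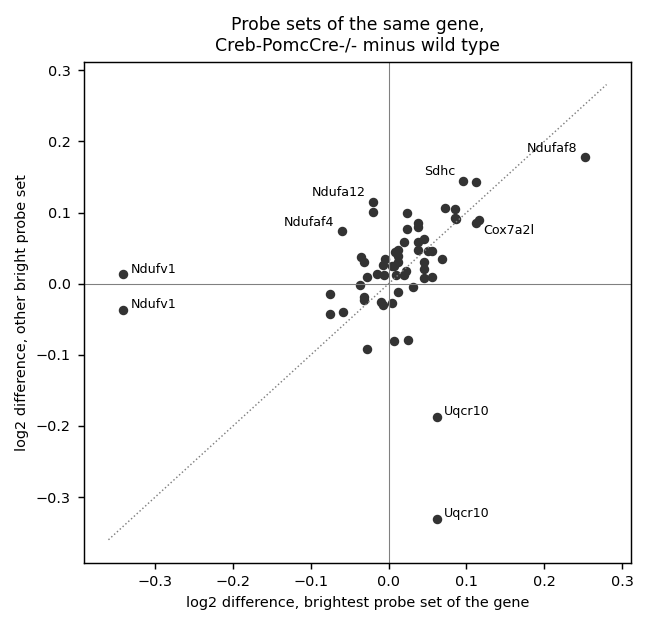
Log2 difference, Creb-PomcCre-/- minus wild type, of the brightest probe set of a gene (x axis) against each of its other probe sets with a mean log2 level of at least 8 (y axis), with the line of equality dotted. Of 61 other probe sets 43 have the sign of the brightest; Ndufaf8, Cox7a2l and Sdhc lie high on both axes, while Ndufv1 and Uqcr10 depart from the line.

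A second reading of the same gene was available for many members. Of the 90 genes 51 had several single-symbol probe sets, and 42 had another one with a mean log2 level of at least 8. In 26 of these 42 genes every such probe set had the sign of the brightest. Among the 12 genes with an unadjusted p under 0.05, 7 had another bright probe set, and in all 7 it went the same way. These probe sets were hybridised with the same samples, so they check the probe and not the difference between animals.

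The complexes were also compared array by array. Scores of the accessory genes of complex I were 0.018, 0.00070 and 0.036 in Creb-PomcCre-/- arrays and -0.028, -0.054, 0.019 and -0.012 in wild-type arrays, which overlap through wild-type array 3. Scores of complex III did not overlap, at 0.015 to 0.023 in Creb-PomcCre-/- arrays and -0.033 to 0.012 in wild-type arrays. That margin was very small, and the median difference of complex III was -0.0035 with the mean of probe sets. Scores of the dim complex IV isoforms did not overlap either, at 0.046 to 0.14 in Creb-PomcCre-/- arrays and -0.11 to 0.0080 in wild-type arrays. Scores of complexes II, IV and V and of the core and assembly genes of complex I overlapped. Wild-type array 2 had the lowest score over the 90 genes, -0.041, and also the highest scores of neuron markers, 0.083, and of thalamus and habenula markers. It had the lowest score of 14 hypothalamus markers too, -0.27, against -0.026 to 0.13 in the other arrays of both genotypes. Of those 14 markers 11 were higher in Creb-PomcCre-/- arrays. Their mean level ran from 9.96 to 10.05 in Creb-PomcCre-/- arrays and from 9.74 to 10.08 in wild-type arrays. Of 15 neuron markers 12 were lower in Creb-PomcCre-/- arrays, and their mean level ran from 11.75 to 11.78 in Creb-PomcCre-/- arrays and from 11.79 to 11.88 in wild-type arrays. Without wild-type array 2 the median over the 90 genes was 0.013, with 57 higher. Wild-type array 3 had the highest score of meningeal markers, 1.21. Without both wild-type arrays 2 and 3 the median was 0.025, with 59 higher, and 30 of the 90 did not overlap (33.3%), against 24.6% of all genes with these arrays. Endothelial and mural markers scored lower in all 3 Creb-PomcCre-/- arrays, with a mean level of 7.96 to 8.12 in Creb-PomcCre-/- arrays and 8.17 to 8.25 in wild-type arrays, as did choroid plexus and ependyma markers (7.05 to 7.12 in Creb-PomcCre-/- arrays and 7.10 to 7.38 in wild-type arrays). Pituitary markers scored higher in all 3, with a mean level of 5.54 to 5.74 in Creb-PomcCre-/- arrays and 4.97 to 5.75 in wild-type arrays. Creb-PomcCre-/- array 2 stood apart in blood markers, at a score of 0.88, against -0.27 to -0.059 in the other arrays of both genotypes. Without that array the median over the 90 genes was 0.031, with 66 higher. The part of other tissue or cell types in these values was not tested. Over the 7 arrays, pairs of the 90 genes correlated at a median of 0.16, and a member with any gene at 0.011, which describes arrays that share their normalization.

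**Figure D5:**
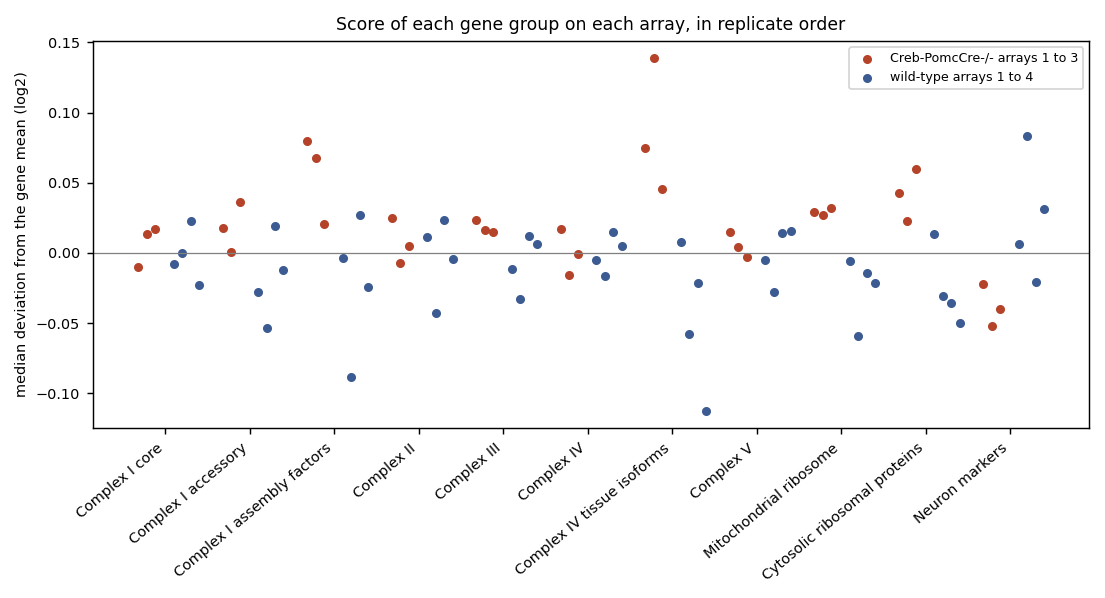
Median deviation of a group's genes from their own means over 7 arrays (y axis, log2), for the 8 groups of oxidative phosphorylation genes and 3 other lists (x axis), with Creb-PomcCre-/- arrays (red) left of wild-type arrays (blue) in replicate order. The complexes mostly overlap between genotypes; mitochondrial and cytosolic ribosomal proteins sit higher and neuron markers lower in all 3 Creb-PomcCre-/- arrays.

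Other mitochondrial genes gave a context for these values, each list from the same fit and arrays. Mitochondrial ribosomal proteins were higher in 66 of 76 genes (median 0.064), 14 of them at an unadjusted p under 0.05 (5.6% of all genes) and 1 lower at that level (6.12% of all genes). Mrps35 and Mrpl47 had the smallest p-values there, at 0.29 ± 0.073 (SE) and 0.23 ± 0.064 (SE), both without overlap. Cytosolic ribosomal proteins were higher in 39 of 43 genes (median 0.071), 17 of them at an unadjusted p under 0.05 (5.6% of all genes). Of these 43, 1 was lower at that level (6.12% of all genes). Mitochondrial protein import was higher in 16 of 19 genes (median 0.054), with 1 higher and 1 lower at that level. Rps9 and Rps19 differed by 0.14 and 0.16, and the import genes Tomm7 and Tomm40 by 0.11 and -0.11. Whether the oxidative phosphorylation genes differ from these lists was not tested.

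Enzymes that feed the chain were closer to an even split. The 16 citric acid cycle and pyruvate dehydrogenase genes split into 7 higher and 9 lower, around a median of -0.0087. Ogdh, a subunit of the 2-oxoglutarate dehydrogenase complex, read 10.26, 10.25 and 10.23 in Creb-PomcCre-/- arrays and 10.41, 10.39, 10.39 and 10.40 in wild-type arrays. It was lower without overlap, at -0.15 ± 0.032 (SE; limma, adjusted p = 0.220), and Suclg2 differed by 0.13. Of 14 glycolytic genes 6 were higher, with a median of -0.0053, Ldha at 0.07 and Ldhb at 0.09.

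Among 17 regulators of mitochondrial biogenesis 9 were higher, with a median of 0.0064. Polrmt, the mitochondrial RNA polymerase, read 8.84, 8.80 and 8.84 in Creb-PomcCre-/- arrays and 8.99, 9.02, 8.96 and 9.01 in wild-type arrays, lower without overlap at -0.17 ± 0.042 (SE; limma, adjusted p = 0.267). Pprc1, a coactivator related to Ppargc1a, differed by -0.16, and Ppargc1a itself by -0.06 ± 0.072 (SE; limma, adjusted p = 0.767). The single gene of the mitochondrial genome read here, ND5, a core subunit of complex I, averaged 13.54 ± 0.041 (SD, n = 3) in Creb-PomcCre-/- arrays and 13.61 ± 0.031 (SD, n = 4) in wild-type arrays, with overlap (-0.06 ± 0.029 SE; limma, adjusted p = 0.434).

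Of 37 assembly factors outside the symbol rule 23 were higher, with a median of 0.030. Coa7 and Surf1, both needed to build complex IV, differed by 0.16 ± 0.056 (SE) and 0.11 ± 0.040 (SE), each without overlap. A list of 19 partners of the chain, made of electron carriers, coenzyme Q genes, the ATP synthase inhibitor Atpif1 and the complex III subunit Cyc1, had 14 higher and a median of 0.030. Etfb, which passes electrons from fatty acid oxidation, differed by 0.19 ± 0.054 (SE) without overlap (limma, adjusted p = 0.281), and Cyct, the dim cytochrome c of testis, by 0.34.

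Promoters were read for sites of the factor removed in the knockout and of factors known to drive respiratory genes. RefSeq windows of assembly GRCm38.p6, from 250 bases before to 50 after each gene's start, were at hand for 74 of the 90 genes and for 14452 of all genes measured. The full CREB site TGACGTCA, the same on both strands, was in the windows of 3 of the 74 genes (4.1%) and of 2.9% of all genes. A short CREB site TGACG on either strand, outside a full site, was in 33.8% of the windows of these genes and in 28.1% of all. The core GCATGCGC of the NRF1 site was in 14.9% of these genes against 4.7% of all, the ETS site CCGGAAG bound by GABP in 25.7% against 15.0%, and the YY1 site AAGATGG in 14.9% against 7.5%, each on either strand. Genes with several windows count once if any holds the letters. A match describes the letters and not binding.

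The promoters with a full CREB site are printed because they carry the recognition sequence of the deleted factor. They belong to Ndufa10 and Ndufb2, accessory subunits of complex I, and to Uqcrfs1, the Rieske protein of complex III. Each runs 5′ to 3′ on the gene's strand, and capitals mark the full site. The windows lie at chr1:92473709-92474008 on the minus strand for Ndufa10, chr6:39592315-39592614 on the plus strand for Ndufb2 and chr13:30545267-30545566 on the minus strand for Uqcrfs1. The site begins 67 bases before the start in Ndufa10, 14 before it in Ndufb2 and 29 before it in Uqcrfs1.
Ndufa10: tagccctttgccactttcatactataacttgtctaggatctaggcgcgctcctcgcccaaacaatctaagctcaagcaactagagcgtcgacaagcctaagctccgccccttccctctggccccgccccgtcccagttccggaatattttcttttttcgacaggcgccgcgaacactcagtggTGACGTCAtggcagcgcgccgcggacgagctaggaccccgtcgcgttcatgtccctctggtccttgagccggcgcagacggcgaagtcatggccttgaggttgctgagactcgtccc
Ndufb2: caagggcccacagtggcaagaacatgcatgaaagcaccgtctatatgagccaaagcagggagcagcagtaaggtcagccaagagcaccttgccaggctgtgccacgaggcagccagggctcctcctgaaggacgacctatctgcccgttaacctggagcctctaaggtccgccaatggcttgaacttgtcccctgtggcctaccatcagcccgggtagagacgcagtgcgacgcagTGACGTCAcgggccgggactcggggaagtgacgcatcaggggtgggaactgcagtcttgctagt
Uqcrfs1: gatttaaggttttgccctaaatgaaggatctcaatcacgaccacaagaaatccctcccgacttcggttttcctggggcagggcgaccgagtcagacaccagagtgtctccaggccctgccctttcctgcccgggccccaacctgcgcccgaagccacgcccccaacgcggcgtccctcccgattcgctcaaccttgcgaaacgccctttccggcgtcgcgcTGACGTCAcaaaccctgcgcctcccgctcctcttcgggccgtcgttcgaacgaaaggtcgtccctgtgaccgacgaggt

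On their brightest probe sets these genes overlapped between the genotypes. Ndufa10 read 12.031, 12.063 and 12.055 in Creb-PomcCre-/- arrays and 11.982, 12.105, 11.995 and 11.985 in wild-type arrays (0.03 ± 0.036 SE). Ndufb2 read 11.79, 11.76 and 11.87 in Creb-PomcCre-/- arrays and 11.73, 11.72, 11.83 and 11.82 in wild-type arrays (0.04 ± 0.042 SE). Uqcrfs1 read 11.64, 11.56 and 11.59 in Creb-PomcCre-/- arrays and 11.61, 11.61, 11.65 and 11.62 in wild-type arrays (-0.03 ± 0.031 SE). The adjusted p-values of the 3 ran from 0.748 to 0.772 (limma). A second bright probe set of Ndufb2 did not overlap: it read 11.75, 11.73 and 11.70 in Creb-PomcCre-/- arrays and 11.63, 11.58, 11.68 and 11.68 in wild-type arrays, a difference of 0.09 ± 0.035 (SE; limma, adjusted p = 0.447).

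Medians of genes with and without the other motifs lay close together. The 25 genes with a short site had a median difference of 0.019, with 15 higher, and the 49 without one 0.024, with 36 higher. The 11 genes with the NRF1 core had a median of 0.038, with 8 higher, and the 63 without it 0.023, with 43 higher. The medians were 0.017 for 19 genes with the ETS site and 0.024 for 55 without it, and 0.0094 for 11 genes with the YY1 site and 0.024 for 63 without it. These differences between medians were not tested.

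The promoters of Cox7a2l and Ndufaf8 are printed because these genes had bright probe sets higher in all 3 Creb-PomcCre-/- arrays. Their windows held no full CREB site. The same was true of 71 of the 74 genes with a window, so this absence does not set them apart. The windows lie at chr17:83514284-83514583 on the minus strand for Cox7a2l and chr11:120098684-120098983 on the plus strand for Ndufaf8, and are printed in lower case since neither holds the full site or the NRF1 core; that of Ndufaf8 holds an ETS site and a YY1 site.
Cox7a2l: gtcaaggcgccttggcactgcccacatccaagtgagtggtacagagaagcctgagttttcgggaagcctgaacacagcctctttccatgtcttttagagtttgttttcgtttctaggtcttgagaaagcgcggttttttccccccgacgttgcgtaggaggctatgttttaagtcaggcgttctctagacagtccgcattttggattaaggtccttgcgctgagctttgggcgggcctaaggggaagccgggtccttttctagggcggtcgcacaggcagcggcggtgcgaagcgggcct
Ndufaf8: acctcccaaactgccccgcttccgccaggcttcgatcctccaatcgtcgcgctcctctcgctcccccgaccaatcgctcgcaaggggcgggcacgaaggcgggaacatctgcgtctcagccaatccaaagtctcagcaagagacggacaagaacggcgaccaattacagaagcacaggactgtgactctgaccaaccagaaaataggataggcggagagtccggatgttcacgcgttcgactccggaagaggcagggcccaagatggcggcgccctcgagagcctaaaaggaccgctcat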

How the data were processed

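The authors deposited log2 expression values, 1 column per array. Per the submitters' processing notes the tools were R 2.10.0, affy and RMA; their settings are not given in the sources used here. RMA corrects background, normalizes by quantiles and summarizes probes, which compresses fold changes and gives no detection call. Of 45101 probe sets, 64 controls were left out; 34945 had 1 symbol, 932 several and 9160 none. Each gene was read from its brightest probe set, by the mean of the 7 arrays. The test was limma 3.58.1 (R 4.3.3; lmFit, eBayes with trend) on 3 against 4 arrays, with Benjamini-Hochberg adjustment over 18193 genes and a threshold of 0.05, tested on simulated data. The number of arrays limits the precision. Figures were drawn with matplotlib 3.10.9. Members, gene lists and tests were chosen with earlier results of these data known. Genes were named by rule: in each group the 4 smallest unadjusted p-values, the 3 highest and 3 lowest differences over all members, paralogous isoforms of complexes IV and V, and the 2 smallest p-values of each other list. Ndufa10, Ndufb2 and Uqcrfs1 were named for their promoter motif, and Ppargc1a, Ndufa4, Ndufa12, Ndufb4, Cox7c and the remaining complex III genes after their values were seen. Alternatives changed the probe set, filter, normalization, variance model, array weights, sex, replicate block and arrays used.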

Additional observations from a re-analysis of the deposited data

Results flagged for a closer look

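In 5 genes 1 wild-type array lay apart from the other wild-type arrays by Dixon's test at 95%, out of 47 tests run; chance marks about 1 in 20 groups. Ndufs5 read 11.47 in wild-type array 1 and 11.90 to 11.92 in the others. Uqcr10 read 11.70 in wild-type array 2 and 11.78 to 11.79 in the others. Cox8a read 12.48 in wild-type array 2 and 12.56 to 12.58 in the others. Cox8c read 7.66 in wild-type array 1 and 7.33 to 7.39 in the others. Atp5md read 12.05 in wild-type array 4 and 12.002 to 12.008 in the others.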

How the results depend on the processing

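No oxidative phosphorylation gene passed the threshold under any alternative run, and none of the 622 values of the 39 members named by rule did; 10 of these 39 changed sign under at least 1 alternative. The median over the 90 genes stayed positive, at 0.013 to 0.031 with single arrays left out. Genes past the threshold numbered 2, against 1 with the mean of probe sets, 7 with array weights and 2 to 21 with single arrays left out (8 without Creb-PomcCre-/- array 1, and 21 and 6 when wild-type array 1 or 2 was dropped). Without wild-type arrays 2 and 3, 1214 genes had an unadjusted p under 0.05, and 30 members did not overlap (33.3%, against 24.6% of all genes). Members with an unadjusted p under 0.05 numbered 12 (11.7% of all genes), against 5 without the variance trend (11.2%) and 18 with quantile normalization (11.5%). With single arrays left out they numbered 7 to 16, where 8.13% to 14.5% of all genes reached that p. Members without overlap numbered 20 to 30 with single arrays left out (22.2% to 33.3%), where 15.6% to 22.3% of all genes did not overlap. Leaving out an array can only keep or raise such a count. With single arrays left out, the complex I core median ran from -0.0080 to 0.026 with 2 to 4 genes higher, and 4 to 8 complex IV genes were higher. Other medians with single arrays left out ran from 0.019 to 0.039 (complex II), 0.014 to 0.038 (III), -0.0089 to 0.017 (IV) and 0.0015 to 0.020 (V). With the mean of probe sets the median was 0.0055 for complex II and -0.0035 for complex III. With dim genes dropped, the complex IV isoforms had a median of 0.028 with 2 of 3 higher, since fewer genes were left. For the other changes the cause was not tested. Same-numbered arrays correlated in their deviations at 0.32, 0.077 and 0.18, and differently numbered arrays of the 2 genotypes at -0.30 to 0.16. For each Creb-PomcCre-/- array the same-numbered value was the highest. So few values cannot tell whether the numbers pair the samples. The replicate block leaves out wild-type array 4. With it 2 genes passed, 0 of them members, and 14 members had an unadjusted p under 0.05 (11.4% of all genes). Of the members 62 were higher, and the median was 0.017. Probe sets of low signal set no firm level for the tissue isoforms and Cox7c.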
